A study of Arabidopsis thaliana with 8 samples.

Results

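The Aux/IAA and GH3 genes are the classic early response genes of the plant hormone auxin. The set examined here holds 36 Arabidopsis thaliana genes chosen by name and AGI code, of 22281 genes in the expression table: the 29 Aux/IAA genes IAA1 to IAA20 and IAA26 to IAA34, and the 7 GH3 genes GH3.1 to GH3.6 and GH3.17. Of these, 35 had a row in the table; GH3.4 (AT1G59500) was not analysed here. A mean of 1 FPKM or more (a transcript level scaled by gene length and sequencing depth) was reached by 28, which were tested, and 7 lay under that minimum. Poly-A RNA came from Col-0 plants kept in 16 h light and 8 h dark, from tissue rich in inflorescence and floral meristems with flowers up to stage 8. There were 4 wild-type libraries (replicates 1 to 4) and 4 libraries of the lsh1 lsh3 lsh4 mutant (replicates 5 to 8), mutated in 3 genes of the ALOG family. The labels do not describe the mutant alleles, and they name no hormone treatment. Whether each replicate was a separate pool of plants is not stated either; p-values therefore describe library-to-library spread that could be technical.

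Auxin acts by removing repressors. Aux/IAA proteins sit on ARF transcription factors and recruit TOPLESS-type co-repressors; auxin glues them to the TIR1/AFB receptors through a short stretch called the degron, and they are then degraded. Many Aux/IAA genes are themselves targets of ARF factors and so form a negative feedback loop. The GH3 genes of this set encode enzymes that join the auxin indole-3-acetic acid to amino acids and so lower the free hormone, another feedback. In the inflorescence, auxin maxima mark where flowers start.

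The coding sequences show which Aux/IAA proteins carry the degron. Translation of the longest coding model of each gene (RefSeq annotation of assembly TAIR10.1) found the degron core, the in-frame codons for glycine, tryptophan, proline and proline, in 23 of 29 Aux/IAA genes and in 0 of 7 GH3 genes. IAA20, IAA30, IAA31, IAA32, IAA33 and IAA34 lack it. A string like the leucine-rich repression motif, with leucine at every second residue in a run of 3 leucines, occurred in 28 of 29, all but IAA33. Its position was not restricted, so a match need not be the repression motif itself. Shown here are the coding bases of the core, in capitals, with 6 bases on each side, for the most abundant member, IAA8, and for the 3 Aux/IAA members with the smallest p-values. They lie in coding exons on the plus strand of TAIR10.1, for IAA8 at chr2:9637728-9637751, for IAA12 at chr1:1241061-1241084, for IAA17 at chr1:1136941-1136964 and for IAA1 at chr4:8361439-8361462.
IAA8: gttgttGGTTGGCCTCCAatcaga
IAA12: gtggtaGGATGGCCACCAattggg
IAA17: gttgtgGGATGGCCACCGgtgaga
IAA1: atcgttGGATGGCCTCCAgtgaga

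The 300 bases before the annotated gene start were searched on both strands for the auxin response elements TGTCTC and TGTCGG, which ARF proteins are known to bind. At least 1 of them was present before 14 of 29 Aux/IAA genes (48.3%) and 3 of 7 GH3 genes (42.9%), against 17.3% of 27443 protein-coding genes. The elements were also counted separately, and some genes held both. TGTCTC was found before 11 Aux/IAA genes (37.9%), against 13% of all genes, and TGTCGG before 6 (20.7%), against 4.91%. No 2 matches overlapped in any member. The windows printed are those of GH3.5, IAA1 and IAA12, on whose values the comparison of genotypes turns, and that of IAA19, which held 3 TGTCTC matches. Capitals mark each match, written as GAGACA or CCGACA where it lies on the opposite strand. The first matched base lay at -47 from the start of GH3.5, at -135 and -36 for IAA1, at -38 for IAA12 and at -184, -145 and -128 for IAA19. IAA17, the remaining member with a small p-value, had no match in its window. These windows are on the plus strand of TAIR10.1 and overlap no other annotated gene: GH3.5 at chr4:13653279-13653578, IAA1 at chr4:8360696-8360995, IAA12 at chr1:1239994-1240293 and IAA19 at chr3:5263701-5264000.
GH3.5: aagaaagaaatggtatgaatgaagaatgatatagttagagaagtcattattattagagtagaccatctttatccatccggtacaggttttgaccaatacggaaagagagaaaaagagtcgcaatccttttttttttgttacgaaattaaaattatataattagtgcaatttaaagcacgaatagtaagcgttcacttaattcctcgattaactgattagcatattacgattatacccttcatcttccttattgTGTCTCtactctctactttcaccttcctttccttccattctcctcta
IAA1: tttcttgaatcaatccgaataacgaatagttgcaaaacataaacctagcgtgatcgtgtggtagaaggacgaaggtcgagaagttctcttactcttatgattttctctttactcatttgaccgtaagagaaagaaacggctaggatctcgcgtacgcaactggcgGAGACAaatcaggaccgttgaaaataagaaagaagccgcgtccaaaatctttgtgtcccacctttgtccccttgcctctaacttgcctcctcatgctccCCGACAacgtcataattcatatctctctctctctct
IAA12: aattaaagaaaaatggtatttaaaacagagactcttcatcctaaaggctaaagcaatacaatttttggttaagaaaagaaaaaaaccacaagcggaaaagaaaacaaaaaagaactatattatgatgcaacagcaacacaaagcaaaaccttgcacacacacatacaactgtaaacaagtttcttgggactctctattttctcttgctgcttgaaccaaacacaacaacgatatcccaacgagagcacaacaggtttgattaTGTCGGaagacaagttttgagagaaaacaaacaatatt
IAA19: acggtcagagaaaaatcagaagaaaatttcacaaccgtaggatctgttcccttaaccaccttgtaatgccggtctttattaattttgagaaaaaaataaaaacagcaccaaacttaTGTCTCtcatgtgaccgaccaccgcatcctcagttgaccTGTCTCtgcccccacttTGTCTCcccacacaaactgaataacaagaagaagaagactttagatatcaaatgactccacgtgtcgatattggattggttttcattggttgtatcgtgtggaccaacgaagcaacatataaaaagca

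A few genes held most of the Aux/IAA transcript. IAA8 (AT2G22670) had 318 ± 17.1 FPKM in wild type, against 332 ± 16.5 in the mutant (mean ± SD, n = 4 each). Its level ranged from 302 to 353 FPKM over all 8 libraries, a ratio of 1.17 between the highest and the lowest, the smallest ratio of any tested member. IAA9 (AT5G65670), its close relative, came next with 235 ± 16.6 and 214 ± 26.5 FPKM. Every library had more IAA8 than IAA9, and together they made up 43.5% ± 3.58 of the summed Aux/IAA FPKM in wild type, against 43.7% ± 4.005 in the mutant. IAA26 (AT3G16500, also named PAP1) had 140 ± 22.1 and 158 ± 27.3 FPKM. The ranges of IAA9 and IAA26 met, since the lowest IAA9 value was 179.8 and the highest IAA26 value 187. IAA16 (AT3G04730) followed at 79.1 to 116 FPKM and IAA27 (AT4G29080) at 50.8 to 88.0 FPKM.

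In the middle of the range, from 34.0 to 73.7 FPKM, lay IAA4 (AT5G43700), IAA12 (AT1G04550, known as BODENLOS, the partner of the ARF MONOPTEROS) and IAA13 (AT2G33310). IAA4 was above IAA12 in each of the 8 libraries and their ranges did not overlap within either genotype, while those of IAA13 overlapped with both. IAA7 (AT3G23050, known as AXR2) had a similar mean but ranged from 27.1 to 103 FPKM. The remaining tested Aux/IAA genes had means of 2.26 to 27.05 FPKM. The Aux/IAA genes without the degron core were low: IAA30 (AT3G62100) had 12.9 ± 4.32 FPKM in wild type, IAA33 (AT5G57420) 7.81 ± 1.61 and IAA20 (AT2G46990) 4.99 ± 0.79. All 6 of them together made up 2.15% ± 0.41 of the summed Aux/IAA FPKM in wild type, against 1.91% ± 0.48 in the mutant.

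Among the GH3 genes, GH3.5 (AT4G27260, also named WES1), whose enzyme is known to act on auxin and on salicylate, was the most abundant with a mean of 32.8 FPKM over the 8 libraries. GH3.6 (AT5G54510, also named DFL1) had a mean of 20.7, GH3.3 (AT2G23170) 11.03, GH3.17 (AT1G28130) 10.8 and GH3.2 (AT4G37390) 8.42 FPKM. The ranges of the last 3 overlapped. Under the minimum were IAA31 (AT3G17600, mean 0.993 FPKM), IAA6 (AT1G52830, 0.630), IAA29 (AT4G32280, 0.542), GH3.1 (AT2G14960, 0.371), IAA15 (AT1G80390, 0.340), IAA32 (AT2G01200, 0.316) and IAA34 (AT1G15050, 0.247), none of which was tested. IAA29 was at 0.481, 0.558, 0.555 and 0.0527 FPKM in wild type replicates 1 to 4 and at 0.697, 0.851, 0.578 and 0.561 in mutant replicates 5 to 8. These values did not overlap, by a margin of 0.558 against 0.561, and the gene was not tested. IAA31 lay just under the minimum, with 1.19 ± 0.27 FPKM in wild type, against 0.80 ± 0.25 in the mutant.

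**Figure D1:**
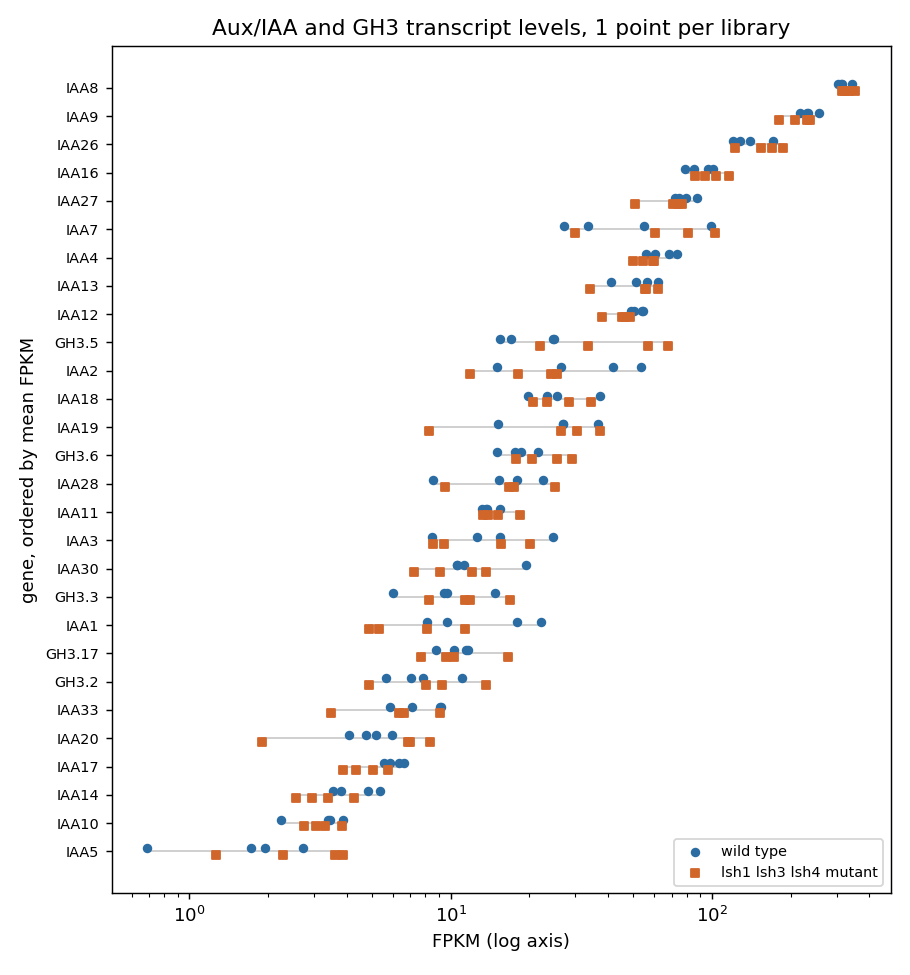
Transcript levels of the 28 tested members in FPKM on a log axis, 1 point per library, ordered by the mean over 8 libraries; blue circles are wild type, orange squares the mutant, and the grey line spans lowest to highest. IAA8 is tightly grouped at 302 to 353 FPKM, while IAA2, IAA19, IAA1 and IAA5 spread widely and the genotypes overlap in all of these 28 but IAA12.

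Some facts on the libraries come before the comparison. LSH4 was lower in the mutant (22.1 ± 2.08 against 5.51 ± 1.42 FPKM), as was LSH1 (10.1 ± 1.96 against 2.87 ± 0.97; limma adjusted p = 0.00773 and 0.0423), while LSH3 overlapped between genotypes (17.2 ± 5.28 against 13.5 ± 2.35). Of 8 meristem and floral identity markers all were present, while CLV3 and WUS stayed between 0.152 and 1.70 FPKM. STM, which keeps meristem cells undifferentiated, was at 76.8 to 98.6 FPKM in wild type and 62.1 to 69.0 in mutant libraries, with no overlap (log2 fold change -0.37, limma adjusted p = 0.145; -0.38 with an adjusted p of 0.00745 in the authors' deposited table). All 6 tested genes of that list had negative log2 fold changes, 1 of them with an unadjusted p under 0.05, where 5.62% of all tested genes were lower with such a p (limma). The part of this list in the values of the members was not tested. Other marker lists differed between libraries. The summed FPKM of 18 photosynthesis genes, all measured, ran from 15499 to 26568 in wild type, against 23283 to 30429 in the mutant. For 5 of 5 stem and xylem genes the sums were 72.0 to 161 and 105 to 211, and for 13 of 13 early stress and touch genes 129 to 1532 and 85.1 to 202. All 18 photosynthesis genes had positive log2 fold changes, 11 with an unadjusted p under 0.05 (limma). All 11 tested early stress genes had negative ones, 8 with such a p. Of all tested genes, 6.91% were higher and 5.62% lower in the mutant with such a p. The part of these lists in the values of the members was not tested. Fits given below use their means as covariates, but both lists shifted with genotype, so those fits cannot separate list from genotype. Of 8 late anther genes 7 had a row, with summed levels of 18.9 to 22.5 FPKM in wild type and 18.5 to 21.9 in mutant libraries. LAP6 (8.06 to 11.8 FPKM) and TKPR1 (9.47 to 11.6 FPKM) made up nearly all of these sums, LAP5 was low in every library, and A9, AMS, MS2 and ACOS5 were listed at 0 in some. Read totals were unknown, so no counting interval could be given.

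No Aux/IAA or GH3 gene differed between the genotypes at the threshold of the test over all genes. By limma on log2(FPKM + 1) with Benjamini-Hochberg adjustment over 17706 genes, 0 of 28 members were called (threshold 0.05), where 0.186% of all tested genes were. The smallest adjusted p among members was 0.278 (limma). At an unadjusted p under 0.05 there were 4 of 28 members (14.3%), close to the 12.5% of all genes. These were 3 Aux/IAA genes with lower values in the mutant, of 23 tested, where 5.62% of all genes were lower, and 1 GH3 gene with a higher value, of 5 tested, where 6.91% of all genes were higher. In 1 of the 28 tested members, IAA12, the genotypes did not overlap, where 7.89% of all genes tested did not. The authors' deposited table of differential genes lists 1 of the 35 members with a row, GH3.5, and 3.69% of all genes in the expression table. In the fit over all genes, 10 of 23 Aux/IAA genes had positive log2 fold changes and 13 negative ones, with a median of -0.14, and all 5 GH3 genes had positive ones with a median of 0.28, beside a median of -0.01 over all genes.

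GH3.5 had the largest difference of any member. It was at 15.5, 16.9, 24.8 and 24.7 FPKM in wild type replicates 1 to 4 and at 67.7, 21.9, 33.4 and 57.1 FPKM in mutant replicates 5 to 8. Mutant replicates 5, 7 and 8 lay above every wild-type library, and mutant replicate 6 lay within the wild-type range. The mean went from 20.5 ± 4.96 to 45.04 ± 21.1 FPKM (SD, n = 4), a ratio of 2.20 and a log2 fold change of 1.001 (SE 0.34, 95% interval 0.23 to 1.77). Its unadjusted p was 0.0163 and its limma adjusted p 0.278, so it did not pass here. The authors' deposited table gives GH3.5 a log2 fold change of 1.14 with an adjusted p of 0.0147. With the early stress list mean of each library as a covariate the log2 fold change was 0.66 (unadjusted p = 0.183, limma adjusted p = 0.616), and without wild type replicates 1 and 2 it was 0.71 (limma adjusted p = 0.787). Over the 20 alternatives to the main fit, the GH3.5 value was positive in 20 and had an unadjusted p under 0.05 in 18 (limma). These fits reuse the same libraries and are not independent. The filters, robust moderation and median-of-ratios scaling left its log2 fold change all but unchanged by construction.

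The other GH3 members differed less, and in most of them mutant replicate 5 stood highest. GH3.6 was at 18.6, 21.6, 15.0 and 17.7 FPKM in wild type, against 25.5, 20.4, 17.8 and 29.2 in the mutant, with overlap and a log2 fold change of 0.32 (95% interval -0.05 to 0.69). GH3.3 was at 9.64, 9.46, 6.01 and 14.7 FPKM in wild type, against 16.9, 8.28, 11.9 and 11.4 in the mutant (0.28, interval -0.32 to 0.87). Both sets of values overlapped between genotypes. GH3.2 (0.12, interval -0.51 to 0.75) and GH3.17 (0.02, interval -0.44 to 0.47) also overlapped. Mutant replicate 5 was the highest mutant library for 4 of the 5 tested GH3 genes, and mutant replicate 6 the lowest for 4 of 5. The summed GH3 level was 62.5, 64.2, 63.4 and 79.8 FPKM in wild type, against 141, 63.4, 81.04 and 117 in the mutant. Without GH3.5 it was 47.01 ± 6.78 in wild type, against 55.6 ± 14.0 in the mutant, so GH3.5 carried most of the difference in the sums.

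IAA1 (AT4G14560, known as AXR5) and IAA2 (AT3G23030) had the largest negative values. IAA1 was at 22.1, 9.69, 17.9 and 8.09 FPKM in wild type replicates 1 to 4 and at 4.87, 8.10, 11.3 and 5.31 in mutant replicates 5 to 8. Wild type replicates 1 and 3 stood above all mutants, and replicates 2 and 4 lay within the mutant range. The log2 fold change of IAA1 was -0.84 (SE 0.34, 95% interval -1.62 to -0.06, unadjusted p = 0.0386, limma adjusted p = 0.371). IAA2 was at 53.5, 26.4, 41.9 and 15.1 FPKM in wild type, against 18.1, 25.4, 24.2 and 11.8 in the mutant (-0.66, interval -1.54 to 0.21). In both genes wild type replicate 1 was the highest of all 8 libraries and replicate 3 came next. Wild type replicate 1 also had the highest summed early stress level (1532 FPKM, against 660, 300 and 129 in wild type replicates 2 to 4). Wild type replicate 2 had a higher summed early stress level than replicate 3, but less IAA1 and IAA2. Much of that gap was TCH3, at 402 FPKM in wild type replicate 2, against 47.3 in replicate 3. The other genes of the list went both ways between these libraries. With the early stress list mean as a covariate the log2 fold change was -0.26 for IAA1 and 0.16 for IAA2. Photosynthesis genes in its place moved the values the other way, to -1.44 for IAA1 and -1.35 for IAA2. Their unadjusted p-values were then 0.00626 and 0.0137, and the adjusted ones 0.600 and 0.677 (limma). Without wild type replicate 1 the log2 fold change of IAA1 was -0.61 (unadjusted p = 0.0972). A part of early stress in these differences was not tested.

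IAA12 and IAA17 had small differences with small spread. IAA12 was at 54.1, 50.3, 49.1 and 54.6 FPKM in wild type, against 46.5, 45.2, 48.5 and 37.9 in the mutant. The genotypes were fully separated, with 49.1 and 48.5 FPKM as the closest pair. The log2 fold change was -0.22 (SE 0.09, 95% interval -0.42 to -0.03, unadjusted p = 0.0296, limma adjusted p = 0.348). IAA17 (AT1G04250, known as AXR3) was at 5.88, 5.53, 6.32 and 6.65 FPKM in wild type, against 5.05, 3.85, 4.35 and 5.77 in the mutant. Only mutant replicate 8 reached into the wild-type range. Its log2 fold change was -0.31 (SE 0.12, 95% interval -0.59 to -0.03, unadjusted p = 0.0343, limma adjusted p = 0.361). Neither kept an unadjusted p under 0.05 when photosynthesis genes entered as a covariate. IAA12 then had -0.16 (limma adjusted p = 0.766) and IAA17 -0.29 (limma adjusted p = 0.755), the latter close to its main value. That fit left 6.74% of all tested genes with such a p, where the main fit had 12.5%. Because photosynthesis genes shifted with genotype, the loss says nothing particular about IAA12 or IAA17.

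**Figure D2:**
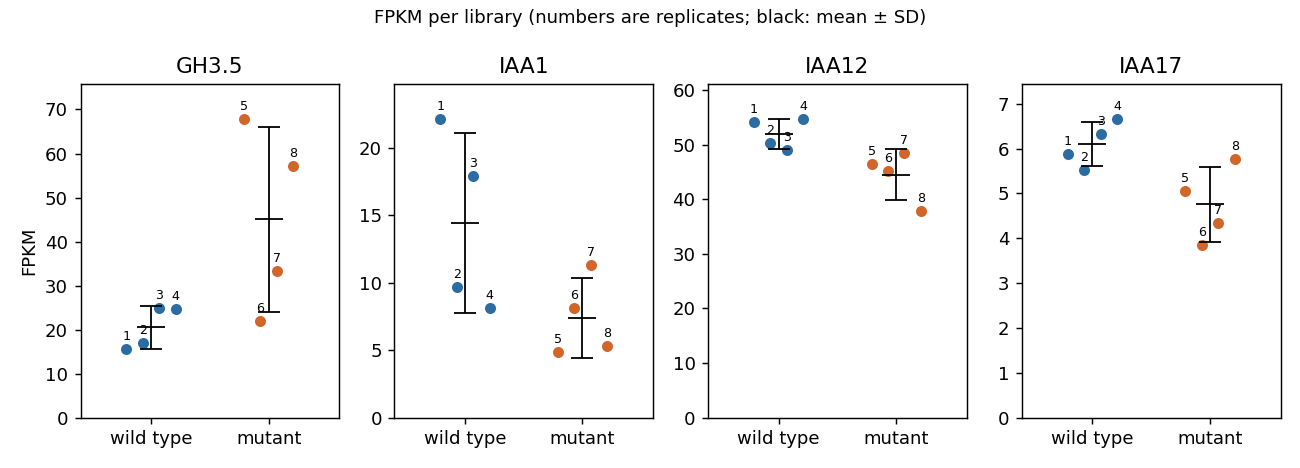
FPKM of GH3.5, IAA1, IAA12 and IAA17 in each library, with the replicate number above each point, wild type on the left and the mutant on the right of each panel, and black bars for mean ± SD (n = 4). Mutant replicates 5 and 8 raise the GH3.5 mean, wild type replicates 1 and 3 the IAA1 mean, and of these 4 genes IAA12 alone has no overlap.

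The intervals of the remaining members bound what these libraries could show. For IAA8 the log2 fold change was 0.06 with a 95% interval of -0.10 to 0.22, and for IAA11 (AT4G28640) 0.10 with an interval of -0.14 to 0.34. IAA9 had -0.14 (interval -0.37 to 0.09) and IAA16 0.14 (interval -0.12 to 0.40). For these genes a doubling or halving lay outside the interval. For IAA7 (0.40, interval -0.66 to 1.46) and IAA19 (AT3G15540, known as MSG2; -0.16, interval -1.16 to 0.84) the intervals reached past a doubling in at least 1 direction. IAA10 (AT1G04100) had 3.24 ± 0.69 FPKM in wild type and a log2 fold change of 0.01, IAA18 (AT1G51950) 26.5 ± 7.61 and 0.03, and IAA28 (AT5G25890) 16.1 ± 5.82 and 0.09, all with overlap. Summed over all 29 Aux/IAA genes, the level was 1276 ± 107 FPKM in wild type, against 1259 ± 134 in the mutant, with overlapping libraries.

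**Figure D3:**
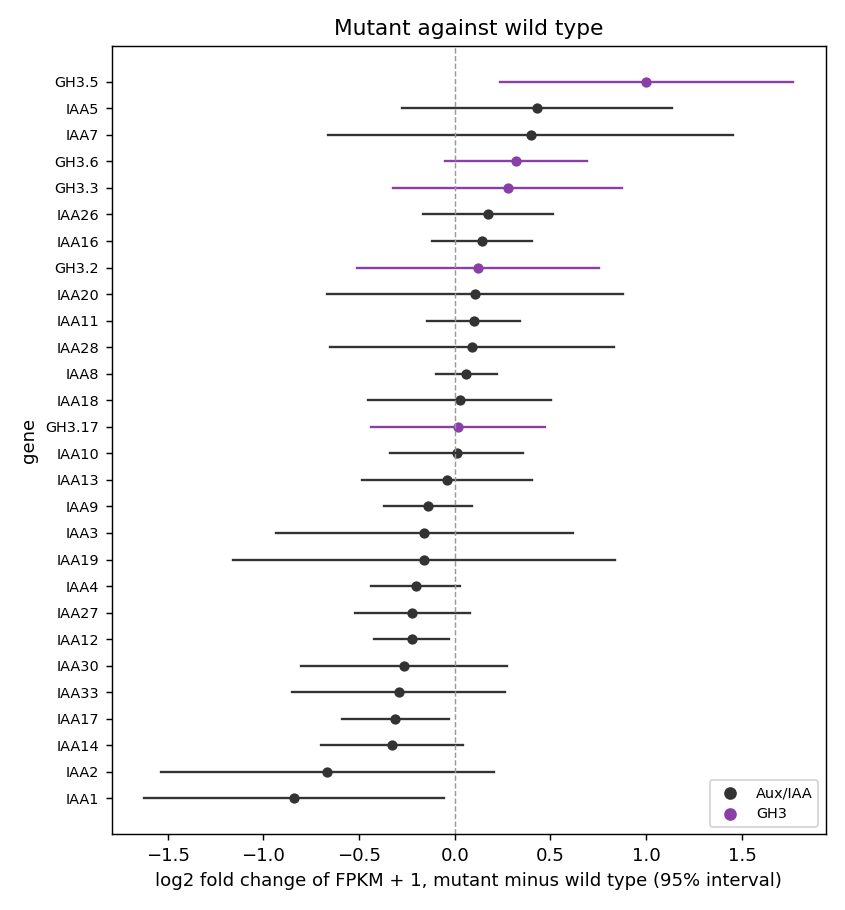
Log2 fold change (mutant minus wild type, on log2(FPKM + 1)) with its 95% interval for the 28 tested members, Aux/IAA in black and GH3 in purple. Only the intervals of GH3.5, IAA1, IAA12 and IAA17 exclude 0 before adjustment, and none of the 28 passed after adjustment.

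In all 23 tested Aux/IAA genes the libraries of at least 1 genotype differed by a larger ratio than the genotype means did, as in 17017 of 17706 genes tested. Over the 8 libraries the ratio of highest to lowest FPKM was 5.59 for IAA5 (AT1G15580), 4.53 for IAA1 and IAA2, 4.52 for IAA19, 4.38 for IAA20 and 3.80 for IAA7. Its median was 1.89 over the 23 tested Aux/IAA genes and 2.78 over the 5 tested GH3 genes, beside 1.49 over all tested genes. IAA19 was at 36.6, 26.9, 26.9 and 15.2 FPKM in wild type, against 26.4, 37.4, 30.3 and 8.27 in the mutant. IAA7 was at 54.7, 33.6, 99.2 and 27.1 FPKM in wild type, against 60.7, 103, 81.1 and 30.0 in the mutant. For both genes wild type replicate 4 and mutant replicate 8 were the lowest of their genotype.

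That order recurred across the Aux/IAA family. Wild type replicate 4 was the lowest wild-type library in 14 of 23 tested Aux/IAA genes and mutant replicate 8 the lowest mutant library in 15 of 23. Both held at once in 13 of 23 (56.5%), where they did in 15.4% of all tested genes, and in 0 of 5 GH3 genes. Wild type replicate 1 was the highest wild-type library in 10 of 23 (43.5%, against 28% of all genes) and mutant replicate 6 the highest mutant library in 13 of 23 (56.5%, against 30.6%). The same libraries lay at the opposite ends for floral organ identity genes: the summed level of AP3, PI and AG was 52.6, 112, 76.9 and 173 FPKM in wild type replicates 1 to 4 and 104, 39.3, 58.1 and 187 in mutant replicates 5 to 8. Wild type replicate 4 and mutant replicate 8 were thus highest, and wild type replicate 1 and mutant replicate 6 lowest. Late anther sums had the same ends. Early stress sums had the ends of the Aux/IAA order. They were highest in wild type replicate 1 (1532 FPKM) and mutant replicate 6 (202), and lowest in wild type replicate 4 (129) and mutant replicate 8 (85.1). Stem and xylem sums were also lowest in wild type replicate 4 (72.0) and mutant replicate 8 (105). Photosynthesis sums were lowest in wild type replicate 4 and mutant replicate 5. In these whole-tissue samples, fewer cells of a type and less RNA per cell cannot be told apart. The mean of AP3, PI and AG was then used as a covariate, a choice made after the data were seen. In that fit 9 of 28 members had an unadjusted p under 0.05, where 21.3% of all genes did (limma). An adjusted p under 0.05 was found for 0 members, and for 2.16% of all genes (limma). The smallest adjusted values were 0.0543 for IAA2 (log2 fold change -0.79), 0.0566 for GH3.5 (1.09) and 0.0679 for IAA1 (-0.94; all limma).

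**Figure D4:**
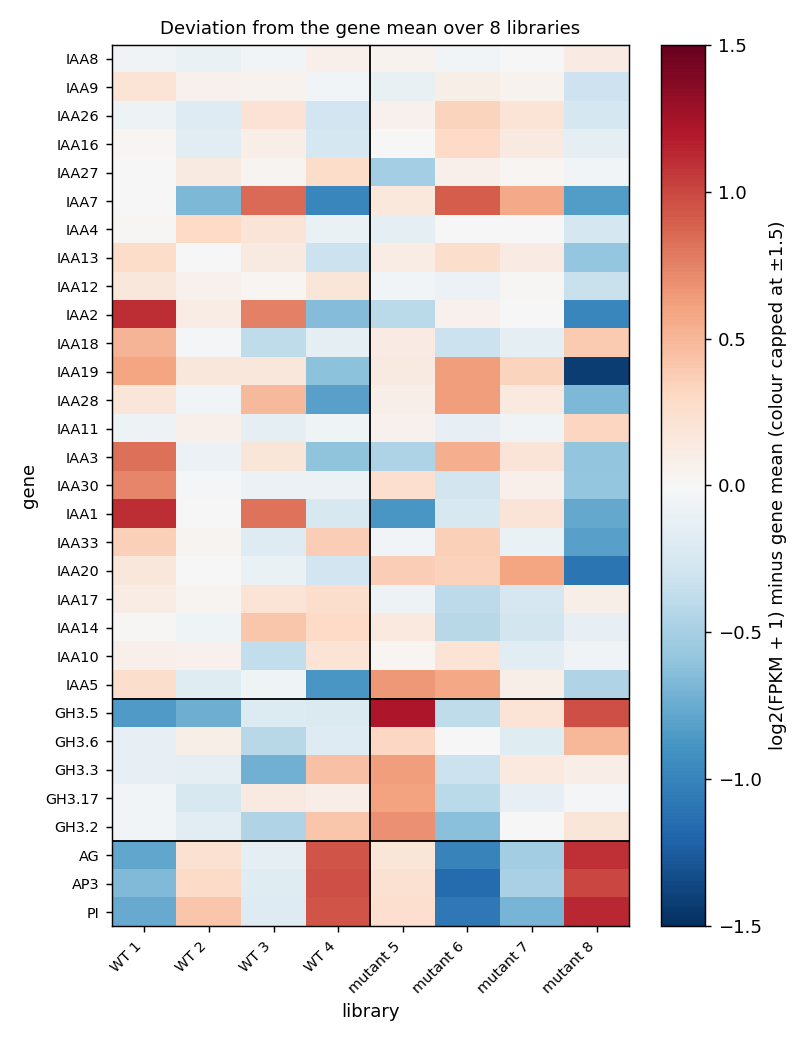
Deviation of log2(FPKM + 1) from the mean of each gene over 8 libraries (columns, wild type left of the line) for 23 Aux/IAA genes, 5 GH3 genes and the floral organ genes AG, AP3 and PI (rows, blocks from top to bottom); red is above and blue below the mean, with colours capped. Columns of wild type replicate 4 and mutant replicate 8 are blue for many Aux/IAA genes and red for AG, AP3 and PI.

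Adjacent Aux/IAA genes had log2 fold changes of the same sign in some pairs and of opposite sign in another. In the annotation 3 pairs of members have 0 protein-coding genes between them and are transcribed away from each other: IAA3 and IAA17 on chromosome 1, IAA2 and IAA7 on chromosome 3, and IAA14 and IAA1 on chromosome 4. IAA3 (AT1G04240, known as SHY2) was at 24.5, 12.6, 15.4 and 8.46 FPKM in wild type, against 9.41, 20.0, 15.5 and 8.57 in the mutant (log2 fold change -0.16), with a ratio of 2.90 between highest and lowest. IAA17 had a log2 fold change of -0.31 and a ratio of 1.73. IAA2 had a negative and IAA7 a positive log2 fold change, and neither interval excluded 0. IAA14 (AT4G14550, known as SLR) was at 3.79, 3.54, 5.35 and 4.83 FPKM in wild type, against 4.28, 2.57, 2.93 and 3.38 in the mutant (-0.33, interval -0.70 to 0.04). Its neighbour IAA1 had -0.84. The pair of IAA2 and IAA7 lies on the same chromosome as LSH4, with 33 and 32 protein-coding genes in between, and an effect of that locus was not tested.

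The other auxin genes gave 0 calls by limma over all genes as well. None of 6 TIR1/AFB receptor genes had an unadjusted p under 0.05; TIR1 (AT3G62980) had 54.3 ± 7.59 FPKM in wild type, against 64.8 ± 10.1 in the mutant (log2 fold change 0.25), and AFB2 (AT3G26810) 25.1 ± 1.67 and 22.6 ± 1.65 (-0.15). Of 15 ARF genes, whose products bind the response elements, 1 did: ETT (AT2G33860), which patterns the gynoecium, had 64.3 ± 9.28 and 53.7 ± 2.81 FPKM (-0.25, unadjusted p = 0.0412, limma adjusted p = 0.377). NPH4 (AT5G20730, ARF7) had 12.2 ± 0.997 and 14.1 ± 1.21 FPKM (0.19). None of the 5 co-repressor genes did, with TPR1 at 0.14 and TPR3 at 0.17. Medians were 0.03 for the receptors, -0.01 for the ARF genes and 0.11 for the co-repressors.

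Among 7 tested auxin synthesis genes an unadjusted p under 0.05 was reached by 2 with higher mutant values, YUC6 and YUC2, and by TAA1 with lower ones. That is 42.9% of this short list, where 12.5% of all tested genes had such a p (limma). In 7.89% of all tested genes the genotypes did not overlap. YUC6 (AT5G25620), a flavin monooxygenase of the last step, was at 5.19, 5.50, 4.53 and 5.26 FPKM in wild type, against 6.96, 8.85, 6.62 and 6.16 in the mutant, with no overlap (0.40, limma adjusted p = 0.225). TAA1 (AT1G70560), the aminotransferase of the step before, had 21.3 ± 2.92 and 16.3 ± 2.43 FPKM (-0.37, limma adjusted p = 0.301). Among 6 tested inactivation and conjugate genes 1 reached it. IAR3 (AT1G51760), a hydrolase that frees auxin from amino acid conjugates, was at 27.7, 31.0, 23.6 and 29.6 FPKM in wild type, against 39.1, 34.6, 41.8 and 58.8 in the mutant, again with no overlap (0.60, limma adjusted p = 0.185). ILR1 (AT3G02875), a related hydrolase, had 0.21. The authors' deposited table lists YUC6 (log2 fold change 0.48, adjusted p = 0.0430) and IAR3 (0.64, adjusted p = 0.0140).

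Of 4 further GH3 genes, GH3.9 (AT2G47750) was at 6.03, 5.07, 7.13 and 4.23 FPKM in wild type, against 8.98, 12.6, 8.46 and 6.58 in the mutant (0.61, unadjusted p = 0.0138, limma adjusted p = 0.264). Mutant replicate 8 alone overlapped with wild type. PBS3 (AT5G13320, GH3.12), which acts in salicylate synthesis, had 5.92 ± 3.08 and 9.79 ± 1.93 FPKM (0.75, limma adjusted p = 0.400). None of 8 tested SAUR genes, a family of early auxin-induced growth genes, had an unadjusted p under 0.05 (median -0.14). The 4 LBD genes listed, targets of ARF factors in roots, had 1 row, under the minimum.

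**Figure D5:**
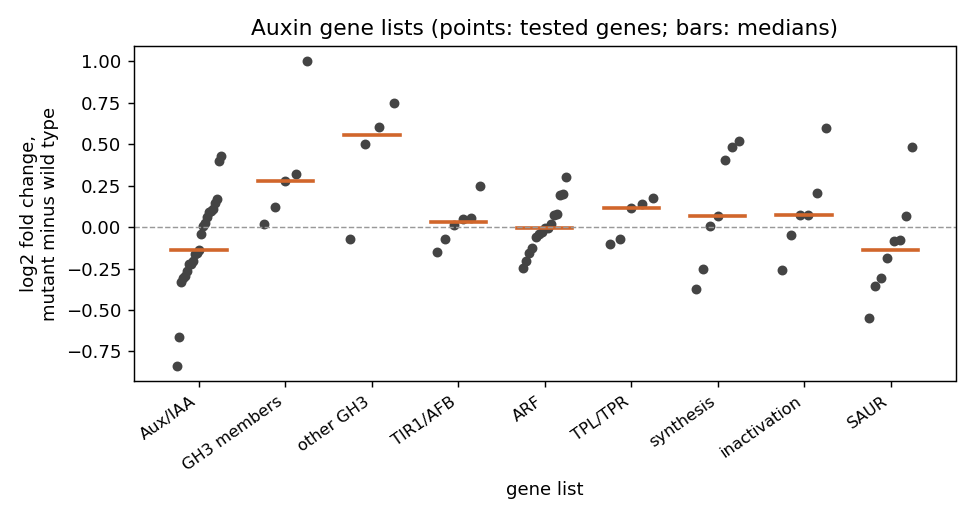
Log2 fold change (mutant minus wild type, on log2(FPKM + 1)) of each tested gene in 9 auxin gene lists, with a bar at the median of each list. Most points lie between -0.5 and 0.5 and GH3.5 is the highest, while IAA1 is the lowest; none of the genes shown passed the test over all genes.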

How the data were processed

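Aux/IAA and GH3 transcript levels were taken from the deposited FPKM values, 1 per gene and library in 8 libraries, with groups and replicate numbers from the sample titles. Per the submitters' processing notes, RSEM, DESeq2 and the build TAIR10 were used; an aligner and an annotation version were not given in the sources used. FPKM keeps no read total, so depth is unknown. Median-of-ratios factors were 1.0017 in all 8 libraries, so that scaling of the deposited FPKM values changed nothing. The authors' deposited table gives a log2 fold change and p-values for 822 genes, with a largest adjusted p-value of 0.0499.

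The genotypes were compared on log2(FPKM + 1) by limma 3.58.1 under R 4.3.3 (2-sided, moderated with a mean-variance trend, 95% intervals) over 17706 genes with a mean of 1 FPKM or more, with Benjamini-Hochberg adjustment (threshold 0.05). Fold changes on this scale understate those of low genes. Members and lists were chosen with earlier results of these data known. Per-library values were given for members with an unadjusted p under 0.05, without overlap between genotypes or in the authors' table, and, to show the spread, for some others chosen after their values were seen; of other lists, the 2 smallest p-values were named. The code was tested on simulated data. The alternatives tried included other pseudocounts (0.1, 0.5), dropping the filter, raising it to 5, TPM rescaling, median-of-ratios scaling, list means as covariates, robust moderation, library weights and leaving out libraries. Sequences were read by AGI code from the RefSeq assembly TAIR10.1; the deposited tables hold no coordinates, and all 36 codes were found. Figures used matplotlib 3.10.9.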

Additional observations from a re-analysis of the deposited data

Results flagged for a closer look

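Of 84 groups of 4 libraries (28 members and 14 other named genes in each genotype), 2 held a library far from the other 3, where chance flags about 5% of groups. IAA20 was at 1.90 FPKM in mutant replicate 8 against 6.84 to 8.30 FPKM in the other mutants; this gap was 0.853 of the whole range on log2(FPKM + 1). IAA30, a gene without the degron core like IAA20, was at 19.4 FPKM in wild type replicate 1 against 10.6 to 11.2 FPKM in the other wild-type libraries, a gap of 0.906 of the range. Causes were not tested.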

How the results depend on the processing

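No member was called higher or lower in the main fit or in any of the 20 alternatives except library weights, where 2 were higher (GH3.5 and IAA26, limma adjusted p = 0.0384 and 0.0410) and 1 lower (IAA17, 0.0408), while 1265 genes were called higher and 1058 lower in all. The number of members with an unadjusted p under 0.05, 4 in the main fit, was 2 with the early stress covariate (11.1% of all genes), 2 without wild type replicates 1 and 2 (7.35%), 9 with the floral organ covariate (21.3%), 7 with library weights (32.7%, above the 25% of members) and 1 to 5 (8.01 to 15.3% of all genes) when 1 library was left out (1 with wild type replicate 1 omitted, 2 on omitting mutant replicate 6 or, in wild type, replicate 3). Over the alternatives the log2 fold change ranged from 0.66 to 1.29 for GH3.5 (limma adjusted p 0.0384 to 0.787), from -1.44 to -0.18 for IAA1, from -0.27 to -0.11 for IAA12 and from -0.41 to -0.23 for IAA17; the filters, robust moderation and median-of-ratios scaling left these values as in the main fit at 2 decimals by construction. The Aux/IAA median changed sign to 0.16 with the early stress covariate and 0.07 when wild type lost replicates 1 and 2. It was 0.04 when wild type lost replicate 1 and 0.01 without mutant replicate 8. With no filter it was 0.01 over 29 genes instead of 23, while the values of those 23 stayed the same. All 5 GH3 values stayed positive under TPM and both pseudocounts. With library weights 4 of 5 were positive, as they were without wild type replicate 2, replicate 3, or replicates 1 and 2 together. With the early stress covariate or without mutant replicate 5, 3 of 5 were positive. Causes were not tested. No paired analysis was possible because the genotypes share no replicate number.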

Other observations

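The SAUR19 to SAUR24 genes, neighbours that encode near-identical small growth-promoting proteins, so that reads can be shared and each value is uncertain, varied between libraries in an order like that of IAA7 and IAA19. SAUR24 (AT5G18080) was at 13.6, 7.45, 11.2 and 5.02 FPKM in wild type replicates 1 to 4 and at 5.51, 17.2, 9.18 and 2.20 in mutant replicates 5 to 8. SAUR20 (AT5G18020) was at 5.41, 4.18, 10.8 and 2.85 FPKM in wild type and 9.05, 15.9, 6.54 and 3.47 in the mutant. Wild type replicate 4 and mutant replicate 8 were the lowest of their genotype in both. SAUR19 was listed at 0 in mutant replicate 8 and has no ratio; over the other 7 tested SAUR genes the median ratio of highest to lowest library was 4.90, beside 1.49 over all tested genes with a ratio.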
